A study of Mus musculus with 8 samples.

Results

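The hypoxia-inducible factor (HIF) pathway was examined in whole mouse kidneys 3 days after ischaemia-reperfusion injury, in which blood flow to the kidney is stopped and then restored. The group comprised 33 genes: the HIF alpha subunits, their oxygen sensors and known HIF target genes. They were taken by gene symbol from the 34450 genes of the deposited table, and all 33 were found. The HxIRI group consisted of 4 libraries from 8-week-old C57BL/6J mice exposed to hypoxia before the injury, which is hypoxic preconditioning, and the IRI group of 4 libraries from mice of the same strain and age kept in normoxia before the same injury. The series measured poly(A) RNA by sequencing to learn how preconditioning alters the transcriptome of the injured kidney. The sources used here give neither the oxygen level nor the length of the exposure. All 8 libraries came from injured kidneys, and no uninjured kidney was analysed here. Whether the 8 libraries are 8 mice is not stated in the labels, so p-values cover only the spread between libraries, and this may be technical.

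HIFs are transcription factors made of an oxygen-regulated alpha subunit and a stable beta subunit. In normal oxygen, prolyl hydroxylases of the EGLN family mark the alpha subunit, the VHL ubiquitin ligase binds the mark, and the protein is degraded. In low oxygen the alpha subunit accumulates, pairs with the beta subunit and binds hypoxia response elements in target genes for angiogenesis, red cell production, glucose uptake, glycolysis and mitochondrial adaptation. Most of this control acts on the alpha protein and not on its mRNA, so target transcripts are commonly used as a readout of the pathway. In the kidney, tubule cells are known to stabilise mainly HIF1A, and endothelial and interstitial cells mainly EPAS1 (HIF2A), which drives erythropoietin.

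Values were FPKM, fragments per kilobase of transcript, scaled by the authors to each library's mapped fragments. The spacing of the lowest values placed the depth at about 8470000 to 14490000 fragments per library, as an approximation. Ribosomal transcripts took 21.6% to 67.4% of the estimated fragments in the HxIRI libraries and 13.6% to 72.5% in the IRI libraries. They were the genes annotated as rRNA or mitochondrial rRNA, with AY036118 added by symbol. The library least like the others was IRI 5, whose Spearman correlation across genes with them averaged 0.824, against 0.849 to 0.876 for the remaining 7. The 14444 genes that averaged 0.5 FPKM or more over the 8 libraries entered a limma test on log2(FPKM + 0.5), with a call at a Benjamini-Hochberg adjusted p under 0.05. Log2 changes on this scale are HxIRI minus IRI and understate the change of low genes. Among the 33 HIF pathway genes 32 were tested, and only Ankrd37 lay below the minimum. All 6 proximal tubule and all 4 podocyte markers were above 0 in all 8 libraries.

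As deposited, none of the 32 tested members passed the test in either direction. Without adjustment, limma gave 1 member a p under 0.05 in the higher direction and 0 in the lower. Among all tested genes, 44 (0.305%) were called higher in HxIRI and 87 (0.602%) lower, and 2.52% and 6.84% had an unadjusted p under 0.05 in those directions. The members' log2 changes ran from -0.64 to 1.81 with a median of 0.31, beside a median of -0.14 over all tested genes. The members' median was -0.04 without HxIRI library 2, 0.14 without IRI library 5, 0.54 without IRI library 7 and 0.17 without IRI library 8. Less the median of all tested genes it was 0.45 with all libraries and 0.26 to 0.52 with each left out in turn, lowest without HxIRI library 2. Changes were positive in 21 members and negative in 11, and 22 of 32 lay above the median of all genes. Standard errors were wide, with a median of 0.59 on the log2 scale, and the 95% interval of 23 members reached a log2 change of 1 or more. A change of that size in either direction was outside the interval for only 1 member, Hif3a, whose change was 0.03 with all libraries and -0.56 without HxIRI library 2. Hif3a lay at 0.06 to 0.63 FPKM in all libraries but HxIRI 2, a level at which adding 0.5 FPKM narrows changes and intervals. With 0.1 FPKM added instead, its change was -0.29.

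**Figure D1:**
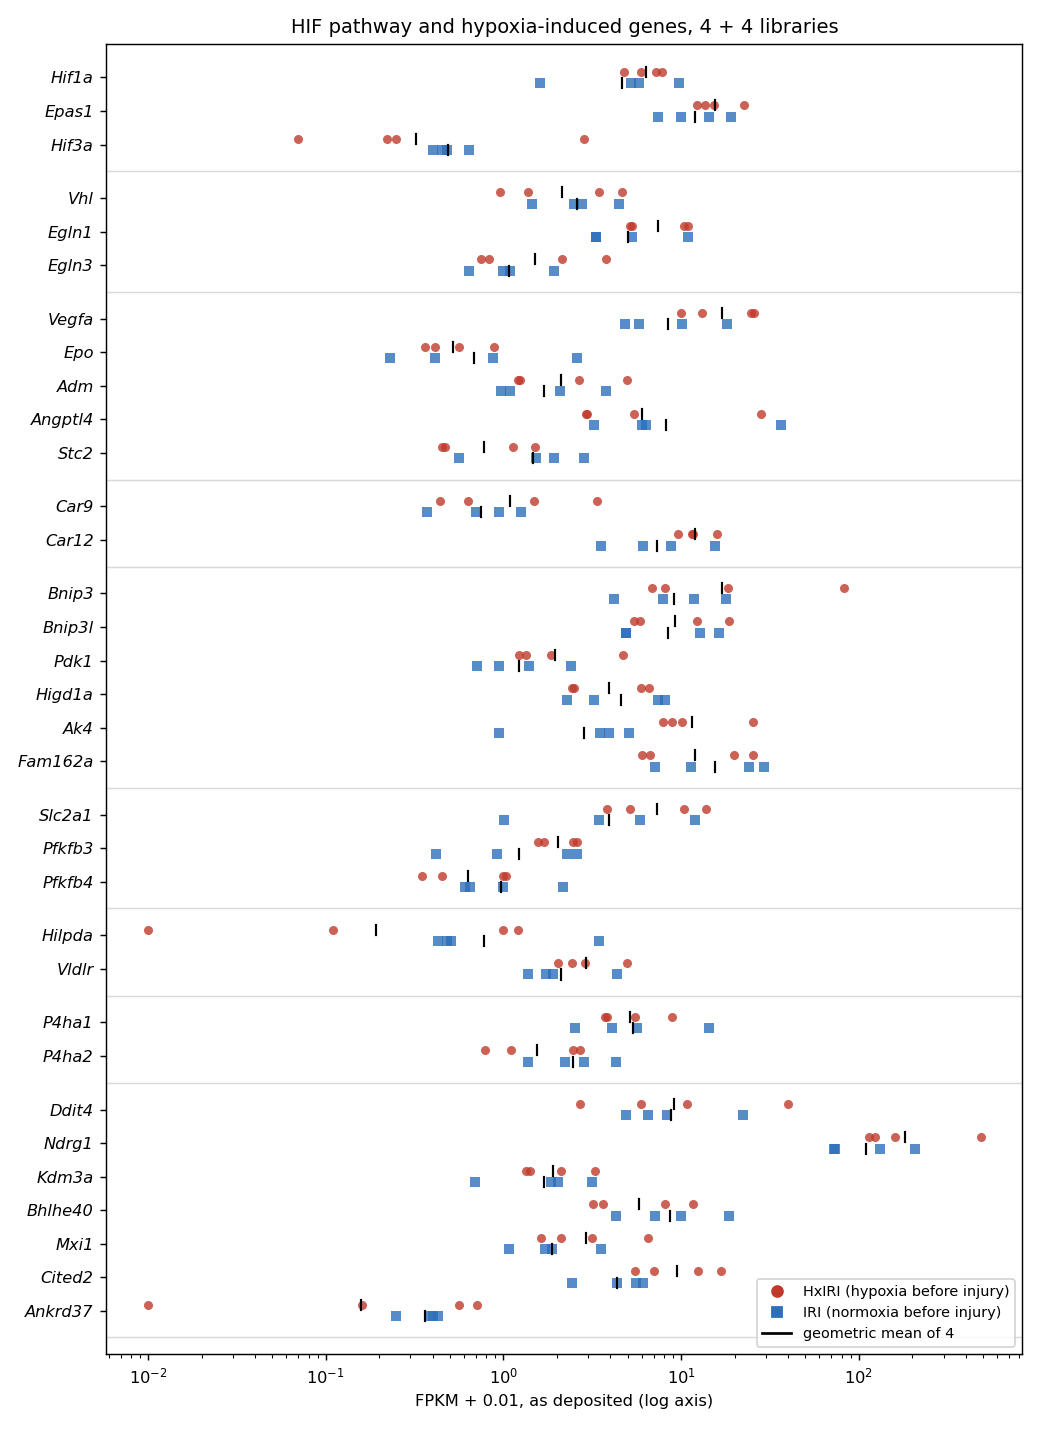
FPKM of the 33 members in each library, plotted as FPKM + 0.01 on a log axis, with red circles for the 4 HxIRI and blue squares for the 4 IRI libraries and a black bar at the geometric mean of each 4. Ak4, at 7.89 to 25.2 FPKM in HxIRI and 0.94 to 5.09 FPKM in IRI libraries, is the only tested member whose groups do not overlap.

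Much of the spread was shared by the members of a library. As deposited, HxIRI library 2 held the highest value of 17 of the 33 members and IRI library 7 of 12, whereas IRI library 5 held the lowest of 14. HxIRI libraries 1 and 2 both exceeded libraries 3 and 4 in 27 of 33 members, and the opposite occurred in 0. The median level of the tested members, as log2(FPKM + 0.5), was 2.69, 2.75, 1.72 and 1.67 in HxIRI libraries 1 to 4, against 1.57, 2.02, 2.54 and 1.36 in IRI libraries 5 to 8. These levels overlapped between the groups. Less the median of all tested genes in the same library, they were 1.01, 0.85, 0.79 and 0.70 in the HxIRI libraries, against 0.32, 0.61, 0.27 and 0.24 in the IRI libraries. On that relative scale every HxIRI library was above every IRI library, which is a description of a chosen list and not a test.

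The same genes were therefore also compared after TMM scaling, which equalises libraries on the bulk of their genes. The TMM divisors were 1.21, 1.36, 0.66 and 0.68 for HxIRI libraries 1 to 4, and 0.91, 1.004, 1.84 and 0.81 for IRI libraries 5 to 8. TMM scaling moved the median change of all tested genes to 0.03, and lowered the median standard error of the members to 0.34. It called 1 member, Ak4, higher and 0 lower in limma, beside 170 (1.18%) of all tested genes higher and 173 (1.2%) lower. Without adjustment 7 members were higher and 0 lower at a p under 0.05, beside 8.4% and 7.8% of all tested genes. The members' median log2 change was then 0.46, and 22 of 32 were positive. After TMM scaling the 95% interval lay within a log2 change of 1 on either side for 7 members, namely Vhl, Epo, Higd1a, Pfkfb4, P4ha1, P4ha2 and Kdm3a. Of these, Epo and Pfkfb4 averaged 0.78 and 0.90 FPKM as deposited, a level at which this scale understates changes.

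The groups were also compared by their overlap. As deposited, the 4 HxIRI values lay wholly above the 4 IRI values in 1 of 32 members (Ak4) and wholly below in 0, beside 1.86% and 3.06% of all tested genes. With TMM scaling 7 of 32 were wholly above (Egln1, Vegfa, Pdk1, Ak4, Ndrg1, Mxi1 and Cited2) and 0 wholly below, beside 7.22% and 5.64% of all tested genes. With quantile normalization, another way to equalise libraries, the count was 8 above and 0 below, beside 7.5% and 6.96%. TMM scaling with IRI library 5 left out gave 9 above and 1 below (Bhlhe40), beside 12.7% and 11% of all tested genes. By the adjusted p in limma, quantile normalization called 1 member higher (Ak4), beside 1.94% of all tested genes, with 7 at an unadjusted p under 0.05, beside 9.53%. TMM scaling without IRI library 5 called 3 higher (Ak4, Cited2 and Vegfa) and 0 lower, beside 4.38% and 4.15% of all tested genes. A fit that weights the libraries by their spread called Ak4 higher and Stc2, P4ha2 and Bhlhe40 lower in limma, beside 2.56% and 16.8% of all tested genes. Its weights ran from 0.19 for IRI library 5 to 5.37 for HxIRI library 4. The members were chosen with earlier results of these data known, so these counts describe the list and carry no test.

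**Figure D2:**
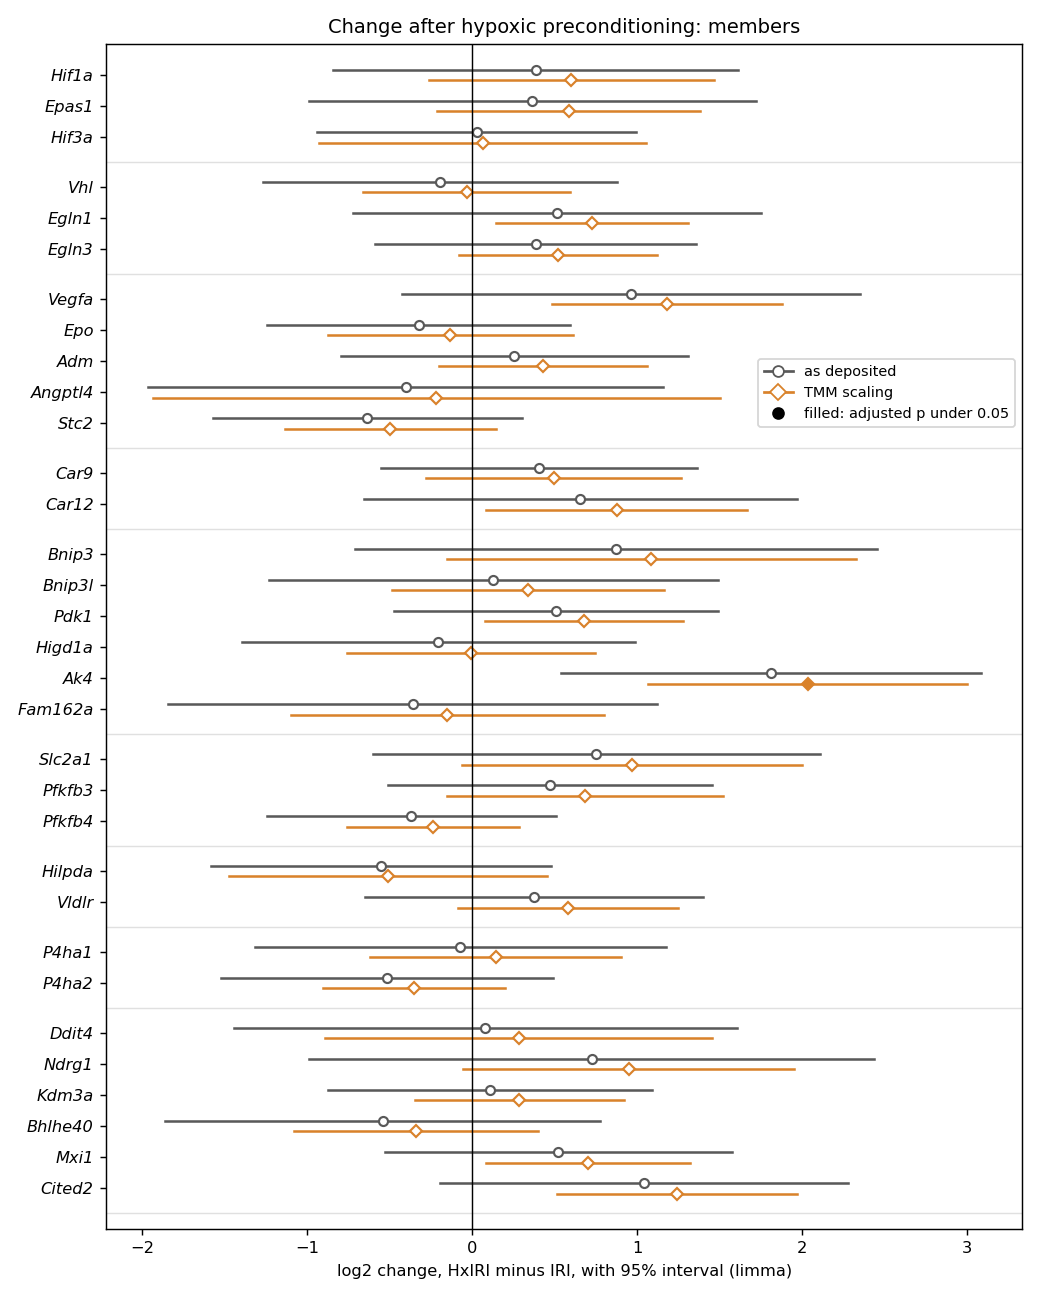
Log2 change (HxIRI minus IRI) of the 32 tested members with its 95% interval from limma, as deposited (grey circles) and after TMM scaling (orange diamonds), with filled symbols where the adjusted p is under 0.05. Ak4 after TMM scaling, at 2.03, is the only filled symbol.

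The promoters of Ak4, Vegfa, Cited2 and Stc2 are shown because the first 3 members had the smallest p of the positive changes and Stc2 the smallest of the negative ones. Each sequence is the 250 bases before the most upstream RefSeq start of the gene, 5′ to 3′ on the strand of the gene, from the RefSeq promoter table of GRCm38.p6. The table holds 4 starts for Ak4, 2 for Vegfa and 1 each for Cited2 and Stc2. The GENCODE genes of Ak4, Cited2 and Stc2 begin slightly upstream of these RefSeq starts, so the ends of those stretches lie inside the genes as GENCODE annotates them. Capitals mark matches to ACGTG or GCGTG, the core of the hypoxia response element, on either strand (CACGT and CACGC on the strand shown). The Ak4 stretch is chr4:101419039-101419288 on the plus strand, that of Vegfa chr17:46032378-46032627 on the minus strand, that of Cited2 chr10:17722978-17723227 on the plus strand and that of Stc2 chr11:31370062-31370311 on the minus strand.
Ak4: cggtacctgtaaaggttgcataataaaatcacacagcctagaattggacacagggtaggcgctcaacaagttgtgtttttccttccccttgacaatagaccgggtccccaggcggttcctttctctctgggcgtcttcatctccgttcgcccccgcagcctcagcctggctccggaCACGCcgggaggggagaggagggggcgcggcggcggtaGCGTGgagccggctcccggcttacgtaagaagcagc
Vegfa: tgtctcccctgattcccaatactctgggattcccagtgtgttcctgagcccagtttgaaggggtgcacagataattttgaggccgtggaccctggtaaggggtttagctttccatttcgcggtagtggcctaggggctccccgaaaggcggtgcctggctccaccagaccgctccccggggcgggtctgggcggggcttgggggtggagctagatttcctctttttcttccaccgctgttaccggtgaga
Cited2: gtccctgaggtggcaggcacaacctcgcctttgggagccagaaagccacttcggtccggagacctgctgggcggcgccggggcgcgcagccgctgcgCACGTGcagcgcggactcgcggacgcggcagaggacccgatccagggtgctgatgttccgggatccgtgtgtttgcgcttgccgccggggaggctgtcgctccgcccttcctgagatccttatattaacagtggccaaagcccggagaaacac
Stc2: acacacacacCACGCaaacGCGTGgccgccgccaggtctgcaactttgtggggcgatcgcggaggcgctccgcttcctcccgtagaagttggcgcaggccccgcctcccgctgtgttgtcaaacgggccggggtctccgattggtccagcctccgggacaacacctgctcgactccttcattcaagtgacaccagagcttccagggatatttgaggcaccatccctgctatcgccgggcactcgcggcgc
The stretches of Ak4 and Stc2 each hold 2 GCGTG matches, 1 on either strand. In Cited2 the 2 matches overlap in 1 palindrome, since CACGTG reads ACGTG on both strands. Vegfa has none in the stretch shown, and 2 in the window of its other annotated start. In windows that also hold the 50 bases from the start, 25 of the 28 members in the table (89.3%) had a match in at least 1 window, beside 46.7% of 27025 genes. Many of the members are textbook HIF targets known to carry such elements, and a match is a description of letters, not of binding. Epas1, Angptl4, Bnip3l, Ndrg1 and Bhlhe40 were not in the table.

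The 3 HIF alpha subunit transcripts did not pass the test. Hif1a, which encodes the subunit found in most cells, measured 7.25, 7.81, 5.97 and 4.79 FPKM in HxIRI libraries 1 to 4, against 1.59, 5.78, 9.67 and 5.19 FPKM in IRI libraries 5 to 8. All HxIRI values lay within the IRI range, and IRI library 5 was the lowest of all. Its log2 change was 0.38 ± 0.60 (SE, limma adjusted p = 0.994) as deposited and 0.60 ± 0.39 (SE, limma adjusted p = 0.5) after TMM scaling. Epas1, which encodes the subunit of endothelial and interstitial cells, measured 12.2, 22.5, 15.35 and 13.65 FPKM in HxIRI libraries 1 to 4, against 7.39, 14.3, 19.1 and 9.95 FPKM in IRI libraries 5 to 8. HxIRI library 2 was the highest, and the other 3 HxIRI libraries lay within the IRI range. Its change was 0.36 ± 0.66 (SE, limma adjusted p = 0.999). Hif3a, whose product can restrain the other HIFs, measured 0.06, 2.85, 0.24 and 0.21 FPKM in HxIRI libraries 1 to 4, against 0.63, 0.47, 0.44 and 0.39 FPKM in IRI libraries 5 to 8. HxIRI library 2 stood far above all other libraries, while the remaining HxIRI libraries were below every IRI library. Its change was 0.03 ± 0.47 (SE, limma adjusted p = 0.999). Hif1a shares 148 exon bases with the predicted gene Gm49321 on the same strand, which the authors' counting could have split.

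The sensors were low to moderate in level. Egln1, which encodes PHD2, the main oxygen-sensing prolyl hydroxylase and itself a HIF target, measured 10.3, 10.95, 5.17 and 5.26 FPKM in HxIRI libraries 1 to 4, against 3.33, 5.3, 10.97 and 3.29 FPKM in IRI libraries 5 to 8. IRI library 7 was level with HxIRI library 2, so the groups overlapped as deposited. The change was 0.52 ± 0.60 (SE, limma adjusted p = 0.958). After TMM scaling Egln1 was 8.54, 8.03, 7.86 and 7.77 FPKM in the HxIRI libraries, against 3.64, 5.28, 5.97 and 4.06 FPKM in the IRI libraries. The groups then lay apart, with a narrow HxIRI range, and the change of 0.73 ± 0.26 (SE, limma adjusted p = 0.198) still did not pass. Egln3, which encodes the strongly hypoxia-inducible PHD3, measured 2.13, 3.79, 0.74 and 0.82 FPKM in HxIRI libraries 1 to 4, against 1.08, 0.98, 1.91 and 0.63 FPKM in IRI libraries 5 to 8. HxIRI libraries 1 and 2 were the high ones among overlapping groups, and the change was 0.38 ± 0.47 (SE, limma adjusted p = 0.97). Vhl, which encodes the substrate-binding part of the ligase, measured 3.44, 4.63, 0.95 and 1.36 FPKM in HxIRI libraries 1 to 4, against 2.77, 2.5, 4.45 and 1.43 FPKM in IRI libraries 5 to 8. Its groups overlapped across nearly the whole range, with a change of -0.20 ± 0.52 (SE, limma adjusted p = 0.999), and TMM scaling left it at -0.03 ± 0.28 (SE, 95% interval -0.66 to 0.60, limma adjusted p = 0.967).

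Of the 5 secreted factors, Vegfa had the largest change. Vegfa (ENSMUSG00000023951, chr17:46016993-46032369, minus strand, GRCm38) encodes vascular endothelial growth factor A, which tubule cells and podocytes supply to the neighbouring capillaries. It measured 25.8, 24.8, 13.1 and 9.99 FPKM in HxIRI libraries 1 to 4, against 5.76, 10.1, 18.05 and 4.85 FPKM in IRI libraries 5 to 8. HxIRI libraries 1 and 2 were above every IRI library, and libraries 3 and 4 lay inside the IRI range. Vegfa averaged 18.4 ± 8.04 FPKM in HxIRI and 9.69 ± 6.03 FPKM in IRI libraries (SD, n = 4 each), with a change of 0.96 ± 0.68 (SE, 95% interval -0.43 to 2.35, limma adjusted p = 0.81). After TMM scaling it was 21.4, 18.2, 19.99 and 14.75 FPKM in the HxIRI libraries, against 6.3, 10.1, 9.82 and 5.99 FPKM in the IRI libraries. All 4 HxIRI libraries were then above all 4 IRI libraries, with a change of 1.18 ± 0.31 (SE, limma adjusted p = 0.0874). It passed under TMM scaling only with IRI library 5 left out, at 1.09 ± 0.26 (SE, limma adjusted p = 0.0381). With any of the other 7 libraries left out instead, its adjusted p under TMM scaling was 0.121 to 0.244 in limma. Those 7 fits called 7 to 119 of all tested genes higher and 0 to 96 lower, beside 170 and 173 with all 8 libraries.

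The other secreted factors did not pass as deposited, with TMM scaling or with quantile normalization. Epo, which encodes erythropoietin, measured 0.88, 0.4, 0.55 and 0.35 FPKM in HxIRI libraries 1 to 4, against 0.22, 0.86, 2.6 and 0.4 FPKM in IRI libraries 5 to 8. IRI library 7 was the highest, the groups overlapped, and the change was -0.33 ± 0.45 (SE, limma adjusted p = 0.983). These values rest on an estimated 2.6 to 32.2 fragments per library, and Epo shares 104 exon bases with Gnb2 on the same strand, so its level is uncertain. Adm, which encodes the vasodilator adrenomedullin, measured 2.67, 4.96, 1.2 and 1.23 FPKM in HxIRI libraries 1 to 4, against 0.96, 2.06, 3.76 and 1.08 FPKM in IRI libraries 5 to 8, with overlapping groups and a change of 0.25 ± 0.51 (SE, limma adjusted p = 0.999). Angptl4, which encodes an inhibitor of lipoprotein lipase and is a target of PPARs as well as HIF, measured 5.4, 28.3, 2.95 and 2.91 FPKM in HxIRI libraries 1 to 4, against 36.4, 6.01, 6.37 and 3.21 FPKM in IRI libraries 5 to 8. A single library in each group was high, HxIRI 2 and IRI 5, and the change was -0.40 ± 0.76 (SE, limma adjusted p = 0.999). Without IRI library 5 and with TMM scaling the change of Angptl4 had the opposite sign, at 0.54 ± 0.53 (SE, limma adjusted p = 0.615). Stc2, which encodes the glycoprotein hormone stanniocalcin 2, measured 1.49, 1.12, 0.46 and 0.44 FPKM in HxIRI libraries 1 to 4, against 1.91, 1.51, 2.84 and 0.55 FPKM in IRI libraries 5 to 8. Its HxIRI values were on the low side of overlapping groups, with the most negative change among the members, -0.64 ± 0.46 (SE, limma adjusted p = 0.82). With library weights it was called lower (-0.85, limma adjusted p = 0.0292), as were 16.8% of all tested genes.

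The carbonic anhydrases, which turn over carbon dioxide and regulate pH at the cell surface, did not pass. Car9, a widely used hypoxia marker in tumours, was low at 1.47, 3.35, 0.62 and 0.43 FPKM in HxIRI libraries 1 to 4, against 1.25, 0.69, 0.94 and 0.36 FPKM in IRI libraries 5 to 8. HxIRI library 2 was the highest and the groups overlapped, with a change of 0.40 ± 0.46 (SE, limma adjusted p = 0.957). Car12, which is known from the distal nephron, measured 15.85, 11.6, 9.62 and 11.5 FPKM in HxIRI libraries 1 to 4, against 3.55, 8.72, 15.5 and 6.09 FPKM in IRI libraries 5 to 8. Of the IRI libraries only number 7 exceeded the lowest HxIRI library. The change was 0.65 ± 0.64 (SE, limma adjusted p = 0.92) as deposited and 0.88 ± 0.36 (SE, limma adjusted p = 0.259) after TMM scaling.

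Among 6 genes for mitochondrial proteins, Ak4 showed the largest change of all members. Ak4 (ENSMUSG00000028527, chr4:101419277-101466995, plus strand, GRCm38) encodes adenylate kinase 4 of the mitochondrial matrix, a HIF target that is abundant in proximal tubule. It measured 25.2, 8.9, 7.89 and 10.1 FPKM in HxIRI libraries 1 to 4, against 3.48, 3.91, 5.09 and 0.94 FPKM in IRI libraries 5 to 8. Every HxIRI library was above every IRI library, HxIRI library 1 was the highest and IRI library 8 the lowest. Ak4 averaged 13 ± 8.19 FPKM in HxIRI and 3.35 ± 1.75 FPKM in IRI libraries (SD, n = 4 each). The log2 change was 1.81 ± 0.62 (SE, 95% interval 0.54 to 3.08, limma adjusted p = 0.202), with an unadjusted p of 0.00714. It was the only member below 0.05 without adjustment, and the other 31 tested members had adjusted p-values of 0.688 to 0.999 in limma.

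Scaling brought Ak4 past the threshold. After TMM scaling it was 20.9, 6.53, 12 and 14.85 FPKM in the HxIRI libraries, against 3.81, 3.89, 2.77 and 1.16 FPKM in the IRI libraries, again without overlap. The change was 2.03 ± 0.43 (SE, 95% interval 1.07 to 3.00, limma adjusted p = 0.0442). It was 2.13 ± 0.45 (SE, limma adjusted p = 0.0304) with quantile normalization and 2.18 ± 0.44 (SE, limma adjusted p = 0.0239) under TMM scaling without IRI library 5. Leaving out any of the other 7 libraries under TMM scaling kept the change at 1.71 to 2.24 but ended the call, with limma adjusted p-values of 0.0625 to 0.164, the highest without IRI library 7. Calls over all tested genes also fell in these fits, from 170 higher and 173 lower to 7 to 119 higher and 0 to 96 lower. As deposited, leaving out each of the 8 libraries gave changes of 1.39 to 2.04 and adjusted p-values of 0.224 to 0.479. A pseudogene, Ak3l2-ps, matches Ak4 over 672 bases and reached at most 3.03 FPKM, so reads could have been split between them.

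Proximal tubule markers were compared between the same groups. The summed level of 6 proximal tubule markers was 411 to 830 FPKM in HxIRI and 91.4 to 584 FPKM in IRI libraries, where the highest value was that of IRI library 5, and none of the 6 passed in limma as deposited or with TMM scaling. Without IRI library 5, TMM scaling called 3 of the 6 higher. In these whole-kidney libraries a change in the number of cells of a type and a change of RNA per cell cannot be told apart. The part of the proximal tubule level in the Ak4 result was not tested.

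**Figure D3:**
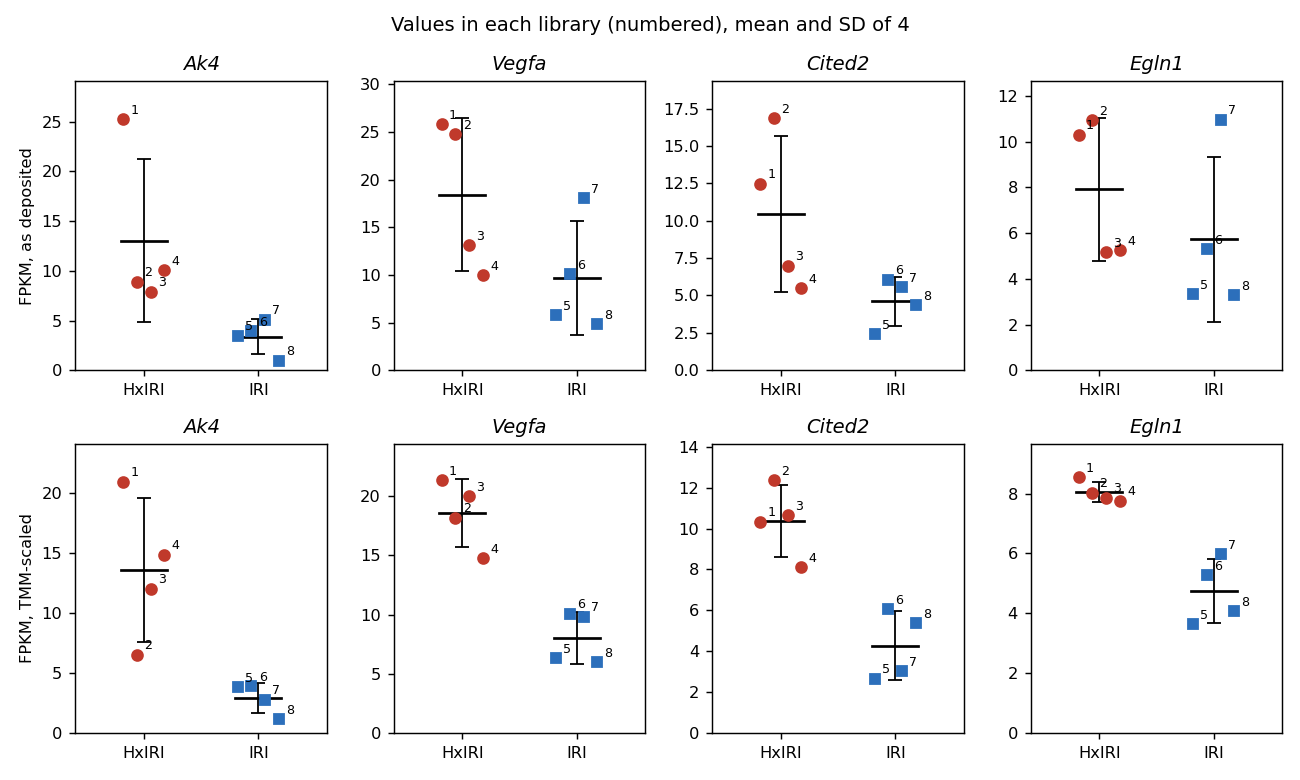
FPKM of Ak4, Vegfa, Cited2 and Egln1 in each library, as deposited (top) and after TMM scaling (bottom), with HxIRI at the left and IRI at the right of each panel, points numbered by library, and mean and SD of 4. As deposited only the Ak4 groups are apart, and after TMM scaling all 4 genes have HxIRI libraries above IRI libraries.

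The other mitochondrial genes did not pass. Bnip3, which encodes a receptor for the removal of mitochondria by autophagy, measured 18.5, 82.3, 8.16 and 6.84 FPKM in HxIRI libraries 1 to 4, against 11.8, 7.9, 17.8 and 4.18 FPKM in IRI libraries 5 to 8. HxIRI library 2 was far above the rest, HxIRI library 1 was just above the highest IRI library, and HxIRI libraries 3 and 4 lay within the IRI range. The change was 0.87 ± 0.77 (SE, limma adjusted p = 0.898), and it became 0.13 when HxIRI library 2 was left out. Leaving out that library also lowered the changes of Pdk1 to 0.15, Ndrg1 to 0.25, Egln3 to 0.03 and Car9 to 0.0040. It lowered the median change of all tested genes as well, from -0.14 to -0.30. Bnip3l, a close relative of Bnip3, measured 12.3, 18.7, 5.43 and 5.85 FPKM in HxIRI libraries 1 to 4, against 12.8, 4.89, 16.3 and 4.9 FPKM in IRI libraries 5 to 8, with overlapping groups and a change of 0.13 ± 0.66 (SE, limma adjusted p = 0.999). Pdk1, which encodes a kinase that keeps pyruvate out of the citric acid cycle, measured 1.84, 4.7, 1.22 and 1.33 FPKM in HxIRI libraries 1 to 4, against 0.7, 1.39, 2.38 and 0.93 FPKM in IRI libraries 5 to 8. HxIRI library 2 was again the highest, and the change was 0.51 ± 0.48 (SE, limma adjusted p = 0.914) as deposited and 0.68 ± 0.27 (SE, limma adjusted p = 0.245) after TMM scaling, when the groups did not overlap. Higd1a, which encodes a respiratory chain assembly factor, had 6.58, 5.94, 2.43 and 2.48 FPKM in the HxIRI and 7.38, 3.22, 8.15 and 2.27 FPKM in the IRI libraries. Fam162a, whose product takes part in hypoxia-linked cell death, had 25.3, 19.8, 6.71 and 6.02 FPKM in the HxIRI and 24.1, 11.4, 29.4 and 7.15 FPKM in the IRI libraries. Both overlapped widely between the groups, with changes of -0.20 ± 0.58 (SE, limma adjusted p = 0.999) for Higd1a and -0.36 ± 0.72 (SE, limma adjusted p = 0.999) for Fam162a. Near-identical copies exist for Bnip3 (5 other genes), Bnip3l (1) and Higd1a (2), and the copies with a value in the deposited table, 4 of the 5 for Bnip3 and all of the others, did not exceed 4 FPKM in any library. Exons of Bnip3 share 504 bases with the opposite-strand gene Gm45507, and those of Higd1a 683 bases with Gm47112. The sources used here do not state whether the authors' counting used strand.

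Glucose handling was represented by 3 members, none of which passed. Slc2a1, which encodes the glucose transporter GLUT1, measured 10.3, 13.8, 3.8 and 5.16 FPKM in HxIRI libraries 1 to 4, against 1, 5.83, 11.98 and 3.44 FPKM in IRI libraries 5 to 8. IRI library 5 was the lowest and the groups overlapped, with a change of 0.75 ± 0.66 (SE, limma adjusted p = 0.898) as deposited and 0.97 ± 0.46 (SE, limma adjusted p = 0.341) after TMM scaling. Without IRI library 5 the TMM-scaled change of Slc2a1 was 0.49 ± 0.25 (SE, limma adjusted p = 0.277). Pfkfb3 and Pfkfb4 encode enzymes that set the level of a fructose bisphosphate that activates glycolysis. Pfkfb3 measured 2.57, 1.69, 2.45 and 1.56 FPKM in HxIRI libraries 1 to 4, against 0.41, 2.28, 2.59 and 0.91 FPKM in IRI libraries 5 to 8, with a change of 0.47 ± 0.48 (SE, limma adjusted p = 0.927). Pfkfb4 was lower in level at 0.98, 1.03, 0.44 and 0.34 FPKM in HxIRI libraries 1 to 4, against 0.99, 0.64, 2.16 and 0.6 FPKM in IRI libraries 5 to 8, with a change of -0.37 ± 0.43 (SE, limma adjusted p = 0.957). Both overlapped between the groups, and the estimates for the pair had opposite signs.

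Both lipid genes and both collagen prolyl hydroxylases also missed the threshold as deposited, with TMM scaling and with quantile normalization. Hilpda, whose product inhibits lipolysis at lipid droplets, measured 1.2, 0.99, 0 and 0.1 FPKM in HxIRI libraries 1 to 4, against 0.42, 0.47, 3.42 and 0.5 FPKM in IRI libraries 5 to 8. IRI library 7 stood above all others and HxIRI library 3 was listed at 0. The change was -0.55 ± 0.50 (SE, limma adjusted p = 0.906). Vldlr, which encodes a lipoprotein receptor, measured 2.03, 4.96, 2.88 and 2.42 FPKM in HxIRI libraries 1 to 4, against 1.37, 1.72, 4.33 and 1.89 FPKM in IRI libraries 5 to 8, with overlapping groups and a change of 0.38 ± 0.50 (SE, limma adjusted p = 0.979). P4ha1 and P4ha2 encode the catalytic subunits of the enzyme that hydroxylates collagen. P4ha1 had 8.87, 5.49, 3.74 and 3.83 FPKM in the HxIRI and 2.51, 5.62, 14.4 and 4.08 FPKM in the IRI libraries, a change of -0.07 ± 0.60 (SE, limma adjusted p = 0.999). P4ha2 had 2.47, 2.69, 0.78 and 1.09 FPKM in the HxIRI and 2.82, 2.2, 4.29 and 1.37 FPKM in the IRI libraries, a change of -0.51 ± 0.49 (SE, limma adjusted p = 0.915). The groups overlapped for both, and their TMM-scaled intervals stayed within a log2 change of 1 on either side. With library weights P4ha2 was called lower in limma, as were 16.8% of all tested genes.

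The members for growth, stress and transcription control were led by Cited2. Cited2 (ENSMUSG00000039910, chr10:17723218-17725674, plus strand, GRCm38) encodes a HIF-induced protein that competes with HIF for the coactivators p300 and CBP. It measured 12.5, 16.9, 7 and 5.49 FPKM in HxIRI libraries 1 to 4, against 2.42, 6.07, 5.56 and 4.35 FPKM in IRI libraries 5 to 8. HxIRI libraries 1, 2 and 3 were above every IRI library, and HxIRI library 4 lay within the IRI range. Cited2 averaged 10.5 ± 5.22 FPKM in HxIRI and 4.6 ± 1.62 FPKM in IRI libraries (SD, n = 4 each), with a change of 1.04 ± 0.60 (SE, 95% interval -0.20 to 2.28, limma adjusted p = 0.688). After TMM scaling it was 10.3, 12.4, 10.65 and 8.11 FPKM in the HxIRI libraries, against 2.65, 6.05, 3.02 and 5.37 FPKM in the IRI libraries. The groups were then apart, with a change of 1.24 ± 0.33 (SE, limma adjusted p = 0.086). The call was made without IRI library 5, at 1.07 ± 0.27 (SE, limma adjusted p = 0.0468), and not when any of the other 7 libraries was left out (limma adjusted p of 0.0879 to 0.281). Those 7 fits called 7 to 119 of all tested genes higher, beside 170 with all 8 libraries.

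Ndrg1, a stress-response gene and the most abundant member, measured 160.2, 486, 114 and 123 FPKM in HxIRI libraries 1 to 4, against 72.4, 132, 208 and 73.2 FPKM in IRI libraries 5 to 8. HxIRI library 2 was above every other library, and IRI library 7 exceeded HxIRI libraries 1, 3 and 4. The change was 0.72 ± 0.83 (SE, limma adjusted p = 0.957) as deposited and 0.95 ± 0.45 (SE, limma adjusted p = 0.338) after TMM scaling, when the groups did not overlap. Ddit4, which encodes the mTORC1 inhibitor REDD1, measured 10.8, 40.04, 2.69 and 5.92 FPKM in HxIRI libraries 1 to 4, against 6.48, 8.34, 22.2 and 4.89 FPKM in IRI libraries 5 to 8. The highest and the lowest value were both in HxIRI libraries, and the change was 0.08 ± 0.74 (SE, limma adjusted p = 0.999). Mxi1, which encodes an antagonist of MYC, measured 3.14, 6.52, 2.1 and 1.62 FPKM in HxIRI libraries 1 to 4, against 1.06, 1.71, 3.55 and 1.87 FPKM in IRI libraries 5 to 8. Its groups overlapped as deposited, with a change of 0.52 ± 0.51 (SE, limma adjusted p = 0.921), and were apart after TMM scaling, at 0.70 ± 0.28 (SE, limma adjusted p = 0.245).

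Kdm3a, which encodes a histone demethylase, measured 2.1, 3.26, 1.4 and 1.33 FPKM in HxIRI libraries 1 to 4, against 0.68, 2.01, 3.14 and 1.84 FPKM in IRI libraries 5 to 8, with overlapping groups and a change of 0.11 ± 0.48 (SE, limma adjusted p = 0.999). Bhlhe40, which encodes the repressor DEC1, measured 8.14, 11.7, 3.18 and 3.64 FPKM in HxIRI libraries 1 to 4, against 4.31, 9.96, 18.5 and 7.08 FPKM in IRI libraries 5 to 8. IRI library 7 was the highest and HxIRI libraries 3 and 4 were the lowest, with a change of -0.54 ± 0.64 (SE, limma adjusted p = 0.96). Under TMM scaling without IRI library 5 all HxIRI values were below all IRI values, at -0.58 ± 0.23 (SE, limma adjusted p = 0.179). With library weights Bhlhe40 was called lower in limma, as were 16.8% of all tested genes. Ankrd37, an ankyrin-repeat gene known to be induced by hypoxia in cultured cells, had 0.55, 0.7, 0.15 and 0 FPKM in the HxIRI and 0.39, 0.42, 0.38 and 0.24 FPKM in the IRI libraries and was not tested. It was listed at 0 in HxIRI library 4. Its exons share 349 bases with the opposite-strand gene Lrp2bp.

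**Figure D4:**
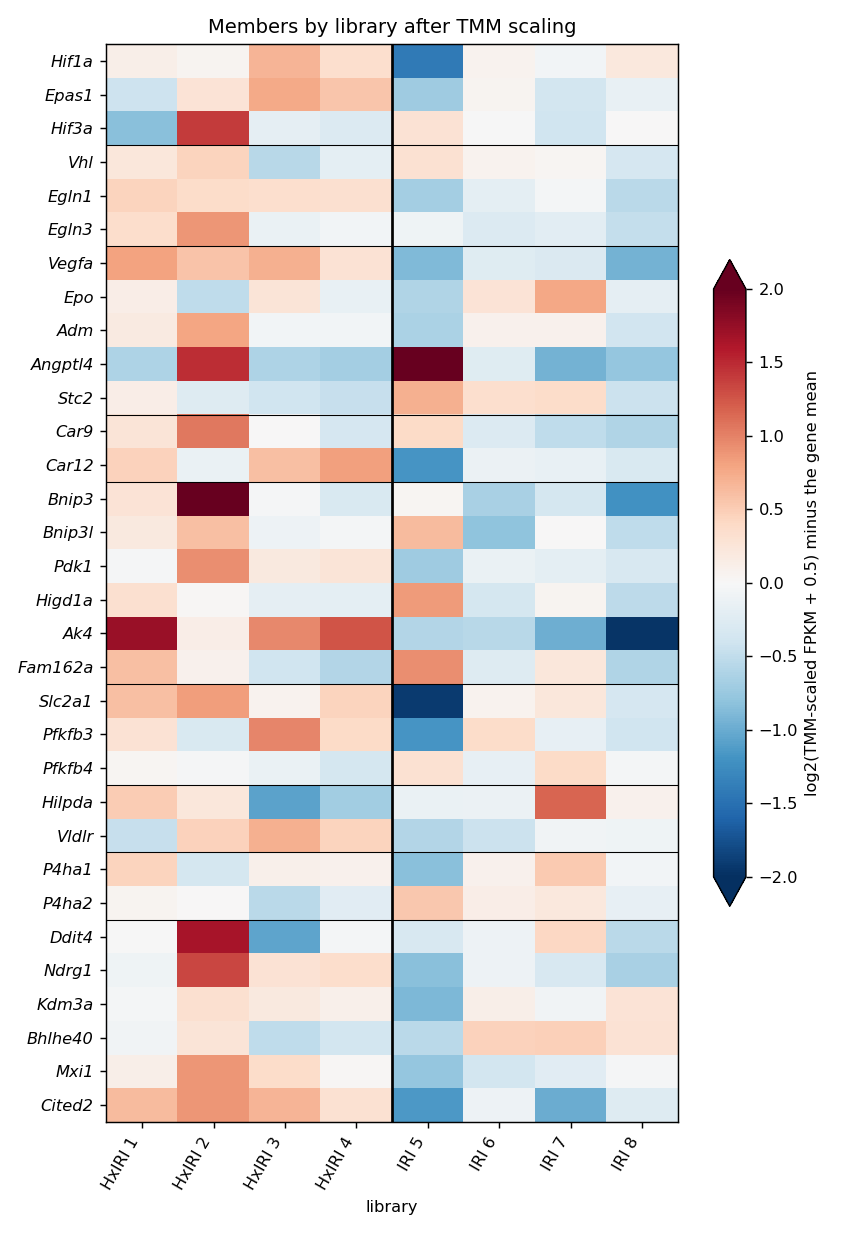
Log2(TMM-scaled FPKM + 0.5) of the 32 tested members less the mean of each gene over the 8 libraries, with HxIRI libraries 1 to 4 left of the line and IRI libraries 5 to 8 right of it, and colours ending at -2 and 2. HxIRI library 2 holds the highest value of 14 of the 33 members after TMM scaling, and IRI library 5 the lowest of 16.

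The spread within groups narrowed with scaling but stayed patterned by library. The median within-group SD of the members on the log2 scale was 0.74 in HxIRI and 0.78 in IRI as deposited, and 0.40 in HxIRI and 0.48 in IRI after TMM scaling. HxIRI libraries 1 and 2 still exceeded libraries 3 and 4 in 17 of 33 members, against 4 with the opposite order. HxIRI libraries 1 and 2 had ribosomal shares of 41.0% and 21.6%, and libraries 3 and 4 of 66.3% and 67.4%. The part of this split in the members' values was not tested.

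A second list held 58 other genes of the pathway, and 56 of them were tested. As deposited, 0 were called higher and 0 lower in limma, beside 0.305% and 0.602% of all tested genes. Without adjustment 1 higher and 3 lower had a p under 0.05, beside 2.52% and 6.84%. Their median log2 change was -0.11, beside -0.14 over all tested genes. TMM scaling called 1 higher (Cxcl12) and 0 lower in limma, beside 1.18% and 1.2% of all tested genes, and without adjustment 5 higher and 5 lower had a p under 0.05, beside 8.4% and 7.8%. These counts are near the shares over all tested genes.

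Cxcl12 (ENSMUSG00000061353, chr6:117168535-117181367, plus strand, GRCm38), which encodes a chemokine that is known as a HIF target in endothelium, measured 12.4, 12.35, 7.24 and 6.66 FPKM in HxIRI libraries 1 to 4, against 1.21, 5.45, 4.58 and 1.42 FPKM in IRI libraries 5 to 8. The groups did not overlap, with the HxIRI libraries high. The change was 1.63 ± 0.59 (SE, limma adjusted p = 0.257) as deposited and 1.85 ± 0.37 (SE, limma adjusted p = 0.0373) after TMM scaling. Leaving out a library other than IRI 5 under TMM scaling kept the call in 1 of 7 cases, and the limma adjusted p reached 0.133 without IRI library 7. Those 7 fits called 7 to 119 of all tested genes higher, beside 170 with all 8 libraries. The summed level of 5 endothelial markers was 17.3 to 30.4 FPKM in HxIRI and 7.44 to 34.0 FPKM in IRI libraries, the lowest being IRI library 5, with none called. Their part in the Cxcl12 value was not tested.

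None of the 11 glycolysis genes was called as deposited or with TMM scaling. Their median log2 change was -0.57 as deposited, -0.34 with TMM scaling and -0.10 with quantile normalization. Under TMM scaling without IRI library 5 the median was 0.06. Hk2, which encodes an inducible hexokinase, measured 0.32, 0.09, 0.44 and 0.24 FPKM in HxIRI libraries 1 to 4, against 0.61, 1.51, 3.04 and 1.71 FPKM in IRI libraries 5 to 8. The groups did not overlap as deposited, with HxIRI low, and the change was -1.42 ± 0.42 (SE, limma adjusted p = 0.115). After TMM scaling they overlapped, at 0.669 FPKM in HxIRI library 3 against 0.667 FPKM in IRI library 5, and the change was -1.23 ± 0.33 (SE, limma adjusted p = 0.0874). It was called lower with quantile normalization, at -1.33 ± 0.30 (SE, limma adjusted p = 0.0405), and under TMM scaling without IRI library 5, at -1.47 ± 0.27 (SE, limma adjusted p = 0.0178). Slc16a3, which encodes the lactate exporter MCT4, was low at 0.33, 0.19, 0.18 and 0.18 FPKM in HxIRI libraries 1 to 4, against 1.82, 0.34, 0.84 and 0.21 FPKM in IRI libraries 5 to 8, with a change of -0.70 ± 0.41 (SE, limma adjusted p = 0.697). Hk2 averaged 0.27 FPKM in HxIRI and 1.72 FPKM in IRI libraries, and Slc16a3 0.22 and 0.80 FPKM. Both met the minimum mean of 0.5 FPKM only through the IRI group, where they were high. Their negative changes, and the Hk2 calls, describe genes selected in this way.

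Of the 4 genes of iron and haem handling, 0 were called as deposited or with TMM scaling. Hmox1, which encodes haem oxygenase 1 and also responds to NRF2, measured 9.64, 10.1, 4.12 and 3.43 FPKM in HxIRI libraries 1 to 4, against 6.7, 16.5, 70.3 and 19.8 FPKM in IRI libraries 5 to 8. IRI libraries 6, 7 and 8 were above every HxIRI library, and IRI library 5 lay within the HxIRI range. The change was -1.62 ± 0.72 (SE, limma adjusted p = 0.461), and it was called under TMM scaling without IRI library 5, at -1.84 ± 0.31 (SE, limma adjusted p = 0.0144). Cp, the ceruloplasmin gene, had a change of -0.79 ± 0.62 (SE, limma adjusted p = 0.864). Of 11 tested matrix and vessel genes Loxl2, which encodes a collagen cross-linking enzyme, measured 2.93, 2.25, 1.82 and 1.73 FPKM in HxIRI libraries 1 to 4, against 8.47, 4.81, 11.1 and 3.64 FPKM in IRI libraries 5 to 8. HxIRI libraries were all lower, with a change of -1.39 ± 0.53 (SE, limma adjusted p = 0.312). It was called with quantile normalization, at -1.13 ± 0.23 (SE, limma adjusted p = 0.0271), and under TMM scaling without IRI library 5, at -0.98 ± 0.21 (SE, limma adjusted p = 0.028). Loxl2 has 5 near-identical other genes in the annotation, so its value is uncertain.

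The remaining groups of the second list held no called gene as deposited or with TMM scaling. Among 11 genes of the sensing and HIF machinery the smallest p belonged to Elob (log2 change -1.20 ± 0.81, SE, limma adjusted p = 0.787) and Eloc (log2 change -0.55 ± 0.59, SE, limma adjusted p = 0.943), which encode the elongins of the VHL ligase. Elob measured 5.98 to 21.9 FPKM in the HxIRI libraries, against 122.65 FPKM in IRI library 5 and 10.4 to 43.5 FPKM in the other IRI libraries, and 3 near-identical genes make its value uncertain. Among 7 receptors it belonged to Flt1, a VEGF receptor gene (log2 change 0.64 ± 0.46, SE, limma adjusted p = 0.82), and Epor, the erythropoietin receptor gene (log2 change 0.52 ± 0.40, SE, limma adjusted p = 0.863). In lipid, glycogen and other metabolism it belonged to Plin2, a lipid droplet coat gene (log2 change -1.35 ± 0.72, SE, limma adjusted p = 0.624), and Gbe1, the glycogen branching enzyme gene (log2 change 0.75 ± 0.49, SE, limma adjusted p = 0.78). In chromatin and transcription it belonged to Ccnd1, the cyclin D1 gene (log2 change -1.27 ± 0.69, SE, limma adjusted p = 0.635), and Kdm4c, a histone demethylase gene (log2 change 0.33 ± 0.50, SE, limma adjusted p = 0.992). Ccnd1 measured 15.7, 11.6, 9.63 and 10.9 FPKM in HxIRI libraries 1 to 4, against 26.4, 23.7, 58.65 and 19.7 FPKM in IRI libraries 5 to 8. All HxIRI values were below all IRI values as deposited and after TMM scaling, when the change was -1.05 ± 0.33 (SE, limma adjusted p = 0.141), but not with quantile normalization. Exons of Ccnd1 share 1100 bases with an opposite-strand gene.

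**Figure D5:**
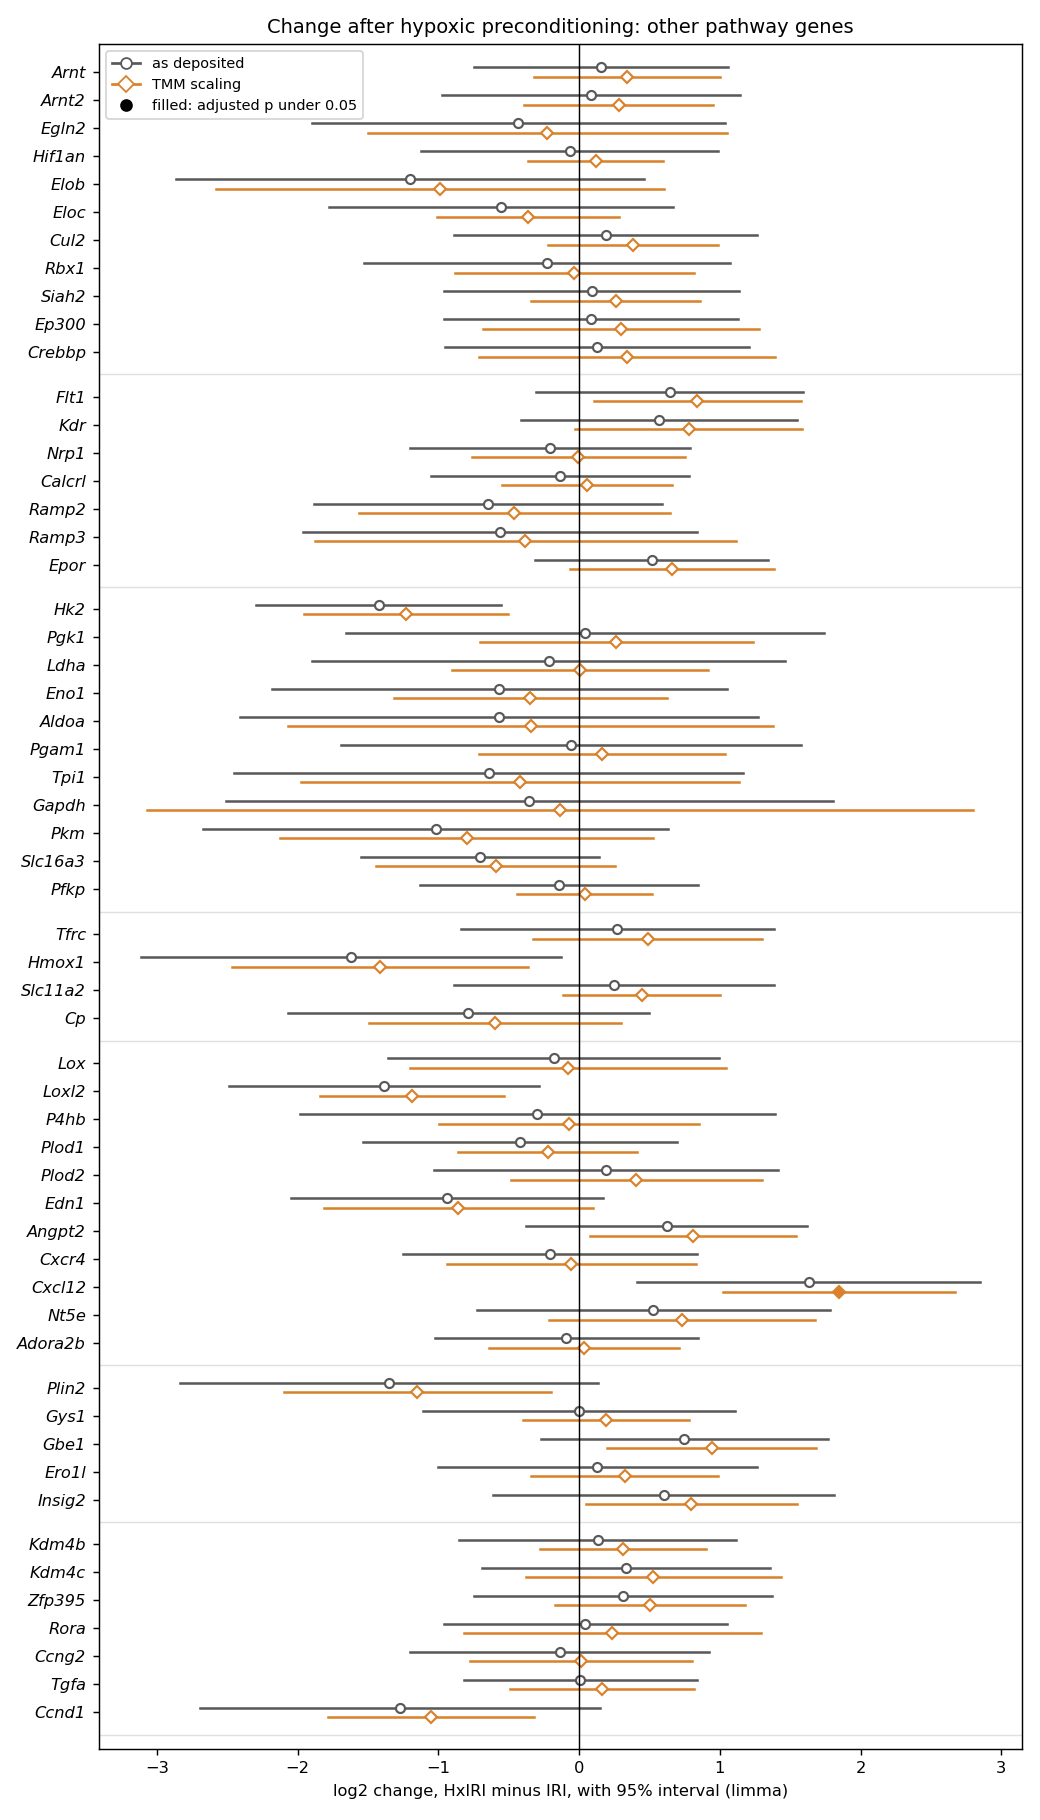
Log2 change (HxIRI minus IRI) of the 56 tested genes of the second list with its 95% interval from limma, as deposited (grey circles) and after TMM scaling (orange diamonds), filled where the adjusted p is under 0.05. Cxcl12, after TMM scaling, is the only filled point.

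Injury and cell type markers were compared between the groups beside these genes. The summed level of 5 injured-tubule markers was 7.15 to 127 FPKM in HxIRI and 233 to 612 FPKM in IRI libraries, with 3 of the 5 lower as deposited, 2 after TMM scaling and all 5 under TMM scaling without IRI library 5. Macrophage markers summed to 9.12 to 36.8 FPKM in HxIRI and 39.1 to 295 FPKM in IRI libraries, with 0 of 5 called as deposited, 2 of 5 lower after TMM scaling and 4 of 5 without IRI library 5. Neutrophil markers summed to 0.06 to 3.18 FPKM in HxIRI and 2.58 to 68.6 FPKM in IRI libraries, with 0 of 3 called in any of these fits. Fibroblast and pericyte markers summed to 16.1 to 33.4 FPKM in HxIRI and 35.5 to 132 FPKM in IRI libraries, with 0 of 5 called as deposited and 1 of 5 lower after TMM scaling. Distal and connecting tubule markers were 49.8 to 93 FPKM in HxIRI and 12.1 to 30.7 FPKM in IRI libraries, with 2 of 4 higher both as deposited and after TMM scaling. Thick ascending limb markers summed to 357 to 1620.01 FPKM in HxIRI and 147.96 to 551 FPKM in IRI libraries, with 0 of 4 called as deposited and 2 of 4 higher after TMM scaling. Principal cell markers of the collecting duct summed to 48.4 to 200.6 FPKM in HxIRI and 9.63 to 54.0 FPKM in IRI libraries, with 0 of 4 called as deposited, 1 higher after TMM scaling and 3 without IRI library 5. Intercalated cell markers summed to 16.0 to 37.4 FPKM in HxIRI and 11.01 to 39.4 FPKM in IRI libraries, with 0 of 4 called as deposited or after TMM scaling and 1 higher without IRI library 5. Of 3 proliferation markers, 2 were lower as deposited and after TMM scaling. Red cell markers summed to 139.6 to 389 FPKM in HxIRI and 7.48 to 295 FPKM in IRI libraries, with 0 of 4 called as deposited and 2 of 4 higher after TMM scaling. The highest IRI sum was that of IRI library 5, and without that library all 4 red cell markers were called higher after TMM scaling. T cell and B cell markers were at or near 0 in the HxIRI libraries and summed to at most 2.21 FPKM in any IRI library. The part of these cell types in the values of Hmox1, Loxl2 and the members was not tested.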

How the data were processed

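Kidneys were frozen in liquid nitrogen, RNA was isolated with Trizol, and TruSeq stranded mRNA libraries were made from it, per the labels' protocols. The submitters' processing notes name HISAT2, StringTie and edgeR without version or role. Which genome build the authors used is not given in the sources used here. Deposited by the authors were FPKM values per gene and library, with no recorded scaling between libraries. Depth was estimated, for want of read counts, from the spacing of low FPKM values in single-exon genes of 600 to 3000 bases. All 34450 gene identifiers matched GENCODE M21 (GRCm38), which gave symbols, exons and coordinates.

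FPKM were tested with the two-sided moderated test of limma (version 3.58.1, R 4.3.3, trended prior variance) on log2(FPKM + 0.5), in genes with a mean of at least 0.5 FPKM over the 8 libraries. Every adjusted p is from limma, with Benjamini-Hochberg adjustment over all tested genes. Group was the only factor, since libraries are numbered 1 to 4 and 5 to 8 and share no number. The step was tested on simulated data with independent noise per gene and library, so spread shared within a library was not simulated. TMM divisors (30% of ratios and 5% of levels trimmed at each end) came from the published formula and served as a scaling only.

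The members, the other pathway genes, the markers and the tests were chosen with earlier results of these data known. A gene of the other pathway list is not reported here and is left out of that list's counts, but stayed in the fit over all genes. Of the other pathway genes, those called as deposited, with TMM scaling (with or without IRI library 5) or with quantile normalization were named, and in each group with no call as deposited also the 2 with the smallest p. Gapdh was named for its call with library weights. Alternatives were pseudocounts of 0.1 and 1, no filter, a filter of 2 FPKM, TMM scaling, quantile normalization, TMM scaling without IRI library 5, robust variance, library weights and each library left out. TMM scaling with each other library left out was added after seeing the data. Near-identical copies were found with blastn 2.17.0 (at least 95% identity over 200 bases).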

Additional observations from a re-analysis of the deposited data

Results flagged for a closer look

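Groups of 4 libraries were checked for a library far from the other 3, in 66 combinations of gene and group, where chance picks about 1 in 20. In the HxIRI group Hif3a reached 2.85 FPKM in library 2, against 0.06 to 0.24 FPKM in the other 3 HxIRI libraries. In the IRI group Hilpda reached 3.42 FPKM in library 7, against 0.42 to 0.50 FPKM in the other 3 IRI libraries. HxIRI library 2 also held the highest value of 17 of the 33 members as deposited, and IRI library 7 that of 12.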

How the results depend on the processing

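No paired analysis was possible because the HxIRI libraries are numbered 1 to 4 and the IRI libraries 5 to 8, with no shared number. Members called higher were 0 as deposited, 1 with TMM scaling, 1 with quantile normalization, 3 with TMM scaling without IRI library 5 and 1 with library weights, and members called lower were 0 in all of these except library weights (3). Other pathway genes called higher were 0 as deposited. The count was 1 (Cxcl12) with TMM scaling, quantile normalization or TMM scaling without IRI library 5. With library weights the 1 higher gene was Gapdh, which has 78 near-identical other genes, and Cxcl12 was not called. Other pathway genes called lower were 0 as deposited, also with any library left out. They were 2 with quantile normalization, 3 with TMM scaling without IRI library 5 and 10 with library weights. Each of these counts includes Hk2, which met the minimum mean FPKM only through the IRI group. Over all tested genes, 44 were higher and 87 lower as deposited, 170 and 173 with TMM scaling, 280 and 349 with quantile normalization, 633 and 599 with TMM scaling without IRI library 5, and 370 and 2424 with library weights. With a pseudocount of 1, 47 were lower. With no filter limma called 0 in either direction among 30982 genes (without adjustment, 665 higher and 1356 lower had a p under 0.05). Leaving out a library as deposited gave 11 to 66 higher and 5 to 226 lower. The higher genes were 26 without HxIRI library 2 and 11 without IRI library 7, and the lower genes 158, 44 and 54 without HxIRI libraries 1, 3 and 4, and 208, 5 and 226 without IRI libraries 6, 7 and 8. The members' median log2 change was 0.31 as deposited and -0.07 with library weights. The median of all tested genes was -0.14 as deposited and -0.34 with library weights. Less that median, the members' median was 0.45 as deposited and 0.26 with library weights.

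Among the members' own changes, 509 alternatives kept the direction and the call, 9 passed where the change as deposited did not, and 37 had the opposite sign without a call. Epo, Hilpda, Hif3a, Pfkfb4, Car9 and Ankrd37 were under 1 FPKM in 5 or more of the 8 libraries. At this level adding 0.5 FPKM narrows changes and intervals. The part of depth in the precision of these genes was not tested. Epo rested on an estimated 2.6 to 32.2 fragments per library and Ankrd37 on 0 to 15.3.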
